A study of Homo sapiens with 4 samples.

Results

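Expression of 9 genes known as targets of the transcriptional co-activator YAP was examined in HEK293 cells that carry a transgene for LGP2-4KR or for LGP2. The genes were CCN1, CCN2, ANKRD1, AMOTL2, AJUBA, LATS2, CRIM1, AXL and F3, out of 18639 named genes on the array. These 9 genes were selected on measured values, because some of them had been lower in 4KR than in LGP2 cells at both times on these same arrays. The ratios of 4KR over LGP2 cells are therefore a description of how the genes were chosen and support nothing further. The platform annotation assigned 11 probes to them, and each probe is treated apart.

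LGP2, encoded by DHX58, is a cytoplasmic helicase related to the viral RNA sensor RIG-I, and HEK293 is an immortalized human embryonic kidney line. Total RNA was taken from 4KR cells 12 h after they were transfected with short poly I:C, a mimic of viral double-stranded RNA, at 100 ng/ml, from LGP2 cells treated in the same way, from 4KR cells at 0 h, and from LGP2 cells at 0 h. Each of these 4 groups was measured on 1 single-colour array, so none of the 5 comparisons has a replicate check or a test, and the number of arrays limits the precision. All arrays came from a transgenic line, and the sources used here do not define the abbreviation 4KR or give the promoter of the transgenes or whether the lines are clones. There was neither a mock transfection nor a 12 h culture without treatment, so poly I:C, transfection and time in culture cannot be told apart. RNA came from whole wells, in which fewer cells with a transcript and less transcript per cell cannot be told apart.

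YAP and its paralog TAZ (gene WWTR1) are held out of the nucleus when the kinases LATS1 and LATS2 of the Hippo pathway phosphorylate them. When the pathway is less active they enter the nucleus, bind TEAD transcription factors and switch on genes of matrix signalling, the cytoskeleton and growth. CCN1, CCN2 and ANKRD1 are the usual readouts of this activity in cultured epithelial cells, whereas AMOTL2, AJUBA and LATS2 belong to the pathway itself and act back on YAP.

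The promoters of CCN2 and ANKRD1 are shown because these genes had the lowest ratios of 4KR over LGP2 cells among the 9 with no offset added to the signals, and because TEAD factors bind the letters GGAATG. Each line holds the 250 bases upstream of the transcription start in RefSeq, assembly GRCh38.p14, written 5′ to 3′ on the gene's strand, with every GGAATG in capitals. The CCN2 promoter lies at chr6:131951373-131951622 and the ANKRD1 promoter at chr10:90921088-90921337, both on the minus strand.
CCN2: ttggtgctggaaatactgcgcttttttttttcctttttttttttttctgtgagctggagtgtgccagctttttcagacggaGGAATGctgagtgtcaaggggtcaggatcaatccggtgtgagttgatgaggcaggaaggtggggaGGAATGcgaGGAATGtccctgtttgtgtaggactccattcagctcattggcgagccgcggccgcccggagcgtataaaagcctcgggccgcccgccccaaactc
ANKRD1: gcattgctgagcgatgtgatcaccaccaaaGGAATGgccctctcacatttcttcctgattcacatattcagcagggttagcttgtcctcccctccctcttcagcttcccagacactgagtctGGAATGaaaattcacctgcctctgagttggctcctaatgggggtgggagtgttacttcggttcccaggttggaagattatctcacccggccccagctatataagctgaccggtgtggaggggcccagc
Searched on both strands, GGAATG occurred 3 times in the CCN2 promoter, with first bases 169, 104 and 95 bases before the start, and 2 times in that of ANKRD1, at 220 and 128 bases. Of 35116 promoter windows of this length, 11.9% held at least 1 match, 0.940% at least 2 and 0.0826% at least 3.

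The table gave promoters for 7 of the 9 genes, and none is shown for CCN1 or CRIM1. GGAATG was found in 1 of 2 promoters of AMOTL2, 1 of 2 of AJUBA and 1 of 2 of AXL, and in neither F3 nor LATS2. The letters TGANTCA, bound by the AP-1 factors JUN and FOS, which often act beside TEAD, occurred 2 times in the F3 promoter and 1 time in that of ANKRD1, overlapping no GGAATG, and in 6.57% of all windows. A match is a stretch of letters, not a measured binding site.

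Of the 11 probes, 9 were detected on all 4 arrays, that is, above the mean plus 2 SD of the array's blank spots. The only AXL probe and 1 of the 2 AJUBA probes were not well above background on any array and give no ratio. AXL encodes a receptor tyrosine kinase. Intensities below are those of the authors' deposited table, in which the median of each array is 25. Log2 ratios are given with an offset of 50 added to the signal before quantile normalization, which shrinks the ratios of dim probes, and with no offset.

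Across all gene probes, 88.0% were detected in 4KR cells at 12 h, 89.2% in LGP2 cells at 12 h, 83.8% in 4KR cells at 0 h and 83.2% in LGP2 cells at 0 h. Copies of 2 positive control spots, printed 24 times each, varied in their log2 ratios with an SD of 0.06 to 0.12, without quantile normalization. This technical spread, like that of the blank spots, lies within a hybridisation and does not cover that between cultures. All 8 of 8 HEK293 marker genes on the array were detected on every array, among them PAX2, LIN28B and the neurofilament genes NEFL and NEFM. The defining markers COL1A2 of fibroblasts, PTPRC of leukocytes and PECAM1 of endothelial cells were not well above background on any array. On every array some marker genes of other cell types were detected, namely 2 of 6 for fibroblasts, 3 of 4 for leukocytes, 1 of 3 for endothelial cells and 2 of 2 for keratinocytes. The summed signal above blank of the fibroblast list was 302 and 241 scanner units in 4KR and LGP2 cells at 12 h, and 181 and 188 at 0 h. In 4KR cells at 12 h, 1 probe of DCN gave 221 of these units. The sums of the keratinocyte list were 673 and 524 at 12 h, and 342 and 360 at 0 h. Probes of the same gene disagreed for DCN and CD3E, whose other probes were detected on 1 and 0 arrays. The part of these marker genes in the results was not tested.

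CCN1 and CCN2 encode secreted matricellular proteins that bind integrins. CCN1, on a probe in block 15 of the 24 printed blocks of the array, had an intensity of 74.5 in 4KR cells against 108.9 in LGP2 cells at 12 h, and of 30.3 in 4KR cells against 47.4 in LGP2 cells at 0 h. Intensity was thus lower in 4KR cells at both times and higher at 12 h in both lines. The log2 ratio of 4KR over LGP2 cells was -0.33 at 12 h and -0.39 at 0 h, and -0.45 and -0.66 with no offset.

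The CCN2 probes disagreed. The probe in block 24, annotated to the CCN2 messenger RNA, had an intensity of 24.4 in 4KR cells against 151.6 in LGP2 cells at 12 h, and of 9.60 in 4KR cells against 189.3 in LGP2 cells at 0 h. LGP2 cells were bright and 4KR cells dim at both times. Its log2 ratio of 4KR over LGP2 cells was -1.68 at 12 h and -2.57 at 0 h, the lowest of 22020 probes at 12 h and of 20704 at 0 h. Nothing is read from that rank, since the genes were chosen on these ratios. With no offset the ratios were -2.55 and -4.25, or 0.171-fold and 0.0525-fold on a linear scale.

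The probe in block 3, annotated to a genomic record of the gene, had an intensity of 8.70 in 4KR cells against 10.1 in LGP2 cells at 12 h, and of 8.20 in 4KR cells against 8.55 in LGP2 cells at 0 h. Its 4 intensities lay close together. Its log2 ratio was -0.04 at 12 h and -0.02 at 0 h, and -0.15 and -0.09 with no offset. The files used here give neither probe's sequence, so which part of the gene each one binds, and why they differ, was not tested.

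ANKRD1 encodes a nuclear and sarcomeric ankyrin repeat protein. Its intensity was 3.70 in 4KR cells against 11.8 in LGP2 cells at 12 h, and 3.40 in 4KR cells against 9.15 in LGP2 cells at 0 h. Both 4KR arrays were below both LGP2 arrays. The log2 ratio of 4KR over LGP2 cells was -0.30 at 12 h and -0.26 at 0 h, and -1.64 and -1.37 with no offset. The probe is dim, between 5.34 and 19.4 SD of the blank spots above their mean, and that SD alone gives the ratio with no offset a standard error of 0.22 at 12 h and 0.29 at 0 h.

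**Figure D1:**
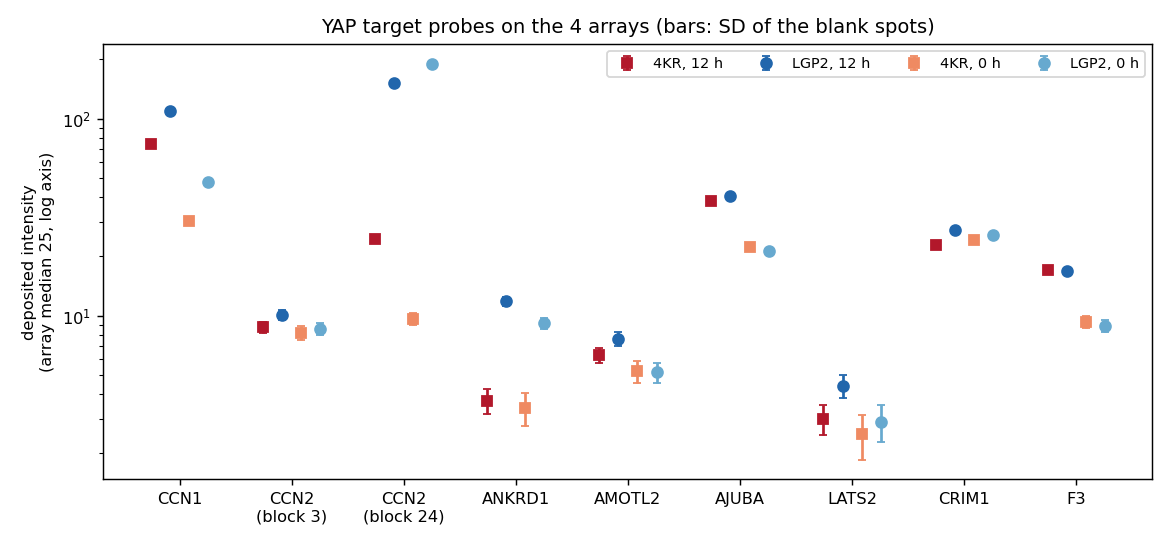
Deposited intensity (log axis, array median 25) of the 9 detected probes of the YAP target genes on the 4 arrays, with bars for the SD of the blank spots on the same scale. The block 24 probe of CCN2 spans 9.60 to 189.3, CCN1 and ANKRD1 are lower in 4KR than in LGP2 cells at both times, and the block 3 probe of CCN2 spans only 8.20 to 10.1.

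The targets that are themselves part of the Hippo pathway, AMOTL2, AJUBA and LATS2, had ratios between -0.04 and 0.02 with the offset. AMOTL2, an angiomotin-like scaffold that holds YAP at cell junctions, had an intensity of 6.30 in 4KR cells against 7.60 in LGP2 cells at 12 h, and of 5.20 against 5.16 at 0 h. Its log2 ratio of 4KR over LGP2 cells was -0.04 at 12 h and -0.00 at 0 h. With no offset the AMOTL2 ratio was -0.20 and -0.02, with a standard error from the blank spots of 0.17 and 0.25. AJUBA, a LIM-domain protein that binds LATS kinases, had 38.2 in 4KR cells against 40.6 in LGP2 cells at 12 h, and 22.4 against 21.3 at 0 h.

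The log2 ratio of AJUBA was -0.01 at 12 h and 0.02 at 0 h, and -0.01 and 0.05 with no offset. LATS2, one of the kinases that phosphorylate YAP, had the dimmest detected probe, with an intensity of 3.0 in 4KR cells against 4.4 in LGP2 cells at 12 h, and of 2.50 against 2.90 at 0 h. Its log2 ratio was -0.04 at 12 h and -0.03 at 0 h. With no offset it was -0.43 and -0.28, with a standard error from the blank spots of 0.33 and 0.49, so the difference was not detectable above the blank spots.

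CRIM1, a membrane protein that binds bone morphogenetic proteins, had an intensity of 22.8 in 4KR cells against 27.1 in LGP2 cells at 12 h, and of 24.2 against 25.6 at 0 h. F3, the coagulation tissue factor, had 17 in 4KR cells against 16.8 in LGP2 cells at 12 h, and 9.30 against 8.89 at 0 h. The log2 ratios were -0.08 and 0.03 at 12 h and -0.05 and 0.01 at 0 h. With no offset CRIM1 was at -0.18 at 12 h and -0.09 at 0 h, with a standard error from the blank spots of 0.05 at each time. F3 was at 0.08 and 0.04, with standard errors of 0.07 and 0.14. These errors do not cover the spread between cultures. For F3 the intensities of the lines lay close together at each time.

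Counted together, 1 of the 9 detected probes, the block 24 probe of CCN2, was at least 1.5-fold lower in 4KR cells at 12 h, and 0 were higher. Across all probes given at 12 h, 0.0318% were as low and 0.0863% as high. At 0 h the counts were again 1 lower and 0 higher, against 0.391% and 0.15% of all probes. With no offset, CCN2 and ANKRD1 passed at 12 h, where 2.99% of all probes did, and CCN1, CCN2 and ANKRD1 passed at 0 h, where 2.38% did. The deposited table gave the same probes, 2 at 12 h and 3 at 0 h, against 3.98% and 2.09% of all. Because the genes were chosen on these ratios, nothing is read from the counts. The median log2 ratio of the 9 probes was -0.04 at 12 h and -0.03 at 0 h, beside -0.00 and 0.01 over all probes.

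**Figure D2:**
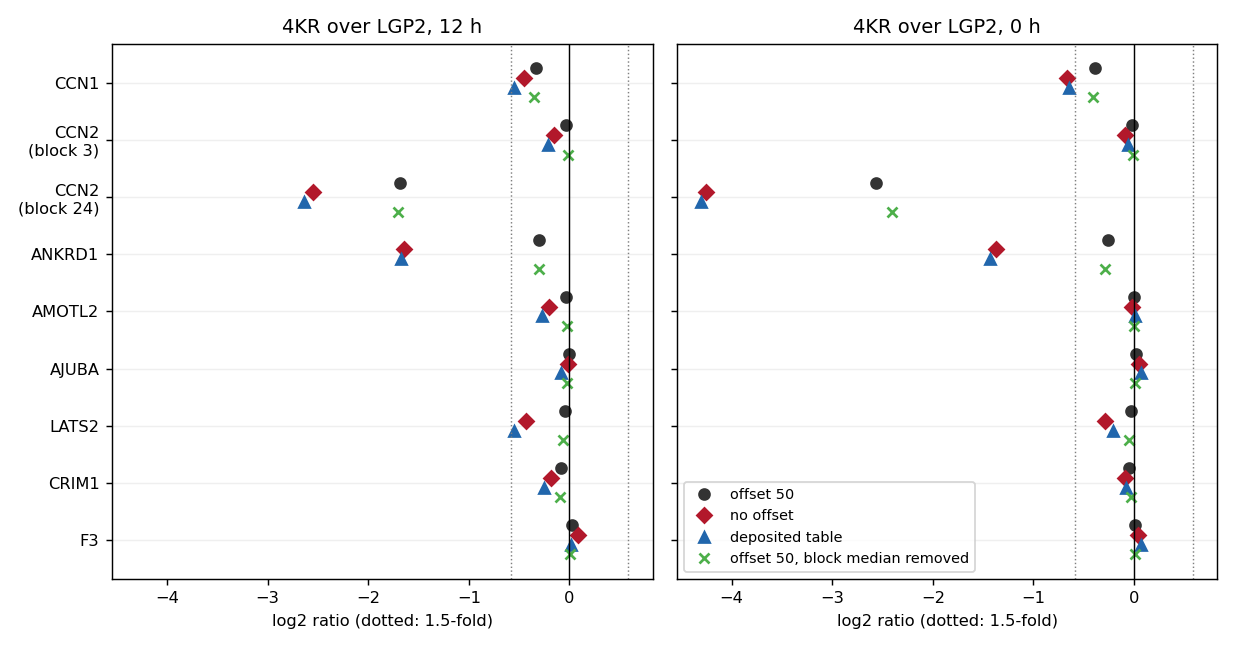
Log2 ratio of 4KR over LGP2 cells at 12 h and at 0 h for the 9 detected probes, from 1 array per group, with an offset of 50, with no offset, in the deposited table and with the block median removed. CCN2 in block 24, CCN1 and ANKRD1 lie left of 0 in every setting, and AJUBA and F3 lie near 0.

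The block 24 probe of CCN2 lies in a part of the array that was shifted at 0 h. The median log2 ratio of 4KR over LGP2 cells in block 24 was 0.02 at 12 h and -0.16 at 0 h. The 28 spots within 5 columns and 2 rows of the CCN2 probe at 12 h had a median of -0.08, running from -0.41 to 0.10, and the 26 such spots at 0 h had a median of -0.41, running from -0.91 to -0.03. The CCN2 ratios lay below all of these neighbours. With the block median removed they were -1.70 at 12 h and -2.40 at 0 h, and with the median of the neighbours removed -1.60 and -2.16.

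CCN1 and ANKRD1 lie in blocks with medians near 0. Within its block, CCN1 was the lowest of 913 probes at 12 h and the second lowest of 860 at 0 h. ANKRD1 was the third lowest of 922 probes in block 6 at 12 h and the second lowest of 859 at 0 h. Over the whole array CCN1 ranked 136 of 22020 from the lowest at 12 h and 258 of 20704 at 0 h. ANKRD1 ranked 203 and 538. The genes were chosen on these same ratios, so low ranks follow from the choice and nothing is read from them.

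**Figure D3:**
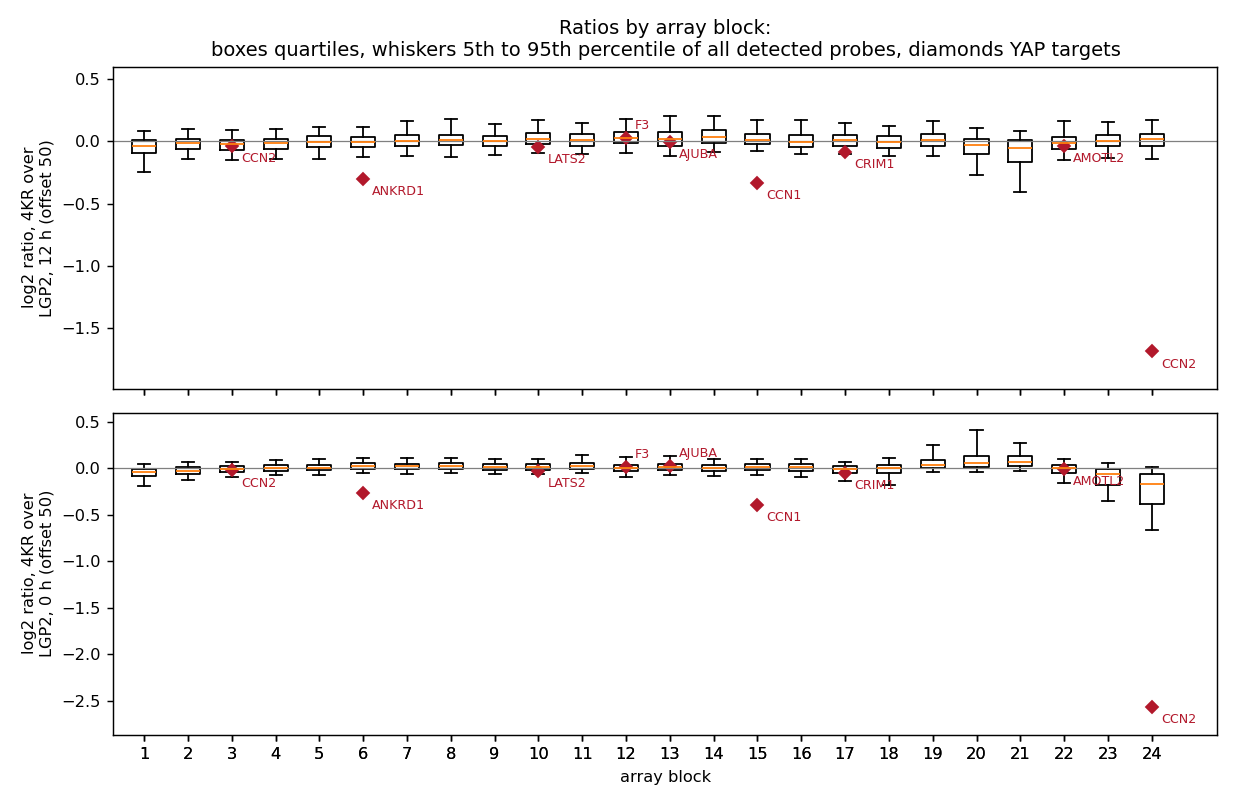
Log2 ratio of 4KR over LGP2 cells (offset of 50) by array block at 12 h and at 0 h, with boxes for the quartiles and whiskers for the 5th to 95th percentile of detected probes. Block 24 is shifted down at 0 h, with a median of -0.16. CCN1, the block 24 probe of CCN2 and ANKRD1 lie below the whiskers of their blocks, and the block 3 probe of CCN2 lies within them. The genes were chosen on these ratios.

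The second question was how the genes differed between 12 h after poly I:C transfection and 0 h. The genes were not chosen on the ratios of 12 h over 0 h, but these use the same 4 arrays. CCN1 was higher at 12 h in both lines, with log2 ratios of 0.72 in 4KR and 0.66 in LGP2 cells, or 1.13 and 0.92 with no offset. These were the 6th highest of 893 and the 5th highest of 906 ratios in block 15. On a linear scale with no offset, CCN1 was 2.19-fold and 1.89-fold higher.

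AJUBA and F3 had smaller ratios of the same sign. AJUBA was at 0.31 in 4KR and 0.34 in LGP2 cells, and at 0.60 and 0.66 with no offset. F3 was at 0.21 and 0.19, and at 0.67 and 0.63 with no offset. In both genes all intensities at 12 h were above those at 0 h.

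ANKRD1, AMOTL2 and LATS2 had ratios near 0 with the offset, which shrinks the ratios of dim probes such as these. ANKRD1 was at -0.03 in 4KR and 0.02 in LGP2 cells, AMOTL2 at 0.00 and 0.04, and LATS2 at -0.01 and 0.00. CRIM1 was at -0.12 and -0.08, and the block 3 probe of CCN2 at -0.03 and -0.02. With no offset ANKRD1 was at -0.22 in 4KR and 0.06 in LGP2 cells, AMOTL2 at 0.03 and 0.20, and LATS2 at -0.12 and 0.03. The standard errors of these values from the blank spots ran from 0.12 to 0.46, and each value lay within its own. In the deposited table the probes of this paragraph ran from -0.09 to 0.28 in 4KR cells and from 0.08 to 0.60 in LGP2 cells. The median over all probes of that table was itself above 0, at 0.14 in 4KR and 0.24 in LGP2 cells.

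The block 24 probe of CCN2 had ratios of opposite sign, at 0.42 in 4KR cells and -0.46 in LGP2 cells, or 1.16 and -0.54 with no offset. The value in LGP2 cells depended on the scaling, at -0.35 with the block median removed, -0.31 with the median of the neighbours removed, -0.26 with arrays scaled to the same median and -0.11 without normalization between arrays. The response of 4KR cells minus that of LGP2 cells equals the ratio of the lines at 12 h minus that at 0 h, on which the genes were chosen, and is therefore a description. It was 0.88, and 1.70 with no offset. The block median of that difference was 0.20, and with it removed the value was 0.68. For the other 8 detected probes the difference ran from -0.04 for ANKRD1 to 0.06 for CCN1.

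At 12 h 1 of the 9 detected probes, that of CCN1, was at least 1.5-fold higher in 4KR cells and 0 were lower, against 1.49% and 0.459% of all probes. In LGP2 cells the counts were also 1 and 0, against 1.7% and 0.526%. With no offset 4 passed in 4KR cells, CCN1, CCN2, AJUBA and F3, where 7.58% of all probes did, and 3 passed in LGP2 cells, CCN1, AJUBA and F3, where 8.38% did. The deposited table gave 4 in each line, with LATS2 in place of CCN2 in LGP2 cells, against 13% and 20.6% of all probes. For the difference of the responses, 1 probe was at least 1.5-fold higher, CCN2, and 0 lower, against 0.547% and 0.472%, and nothing is read from this count. The median log2 ratio of the 9 probes was 0.00 in 4KR and 0.02 in LGP2 cells, beside -0.01 over all probes in each.

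**Figure D4:**
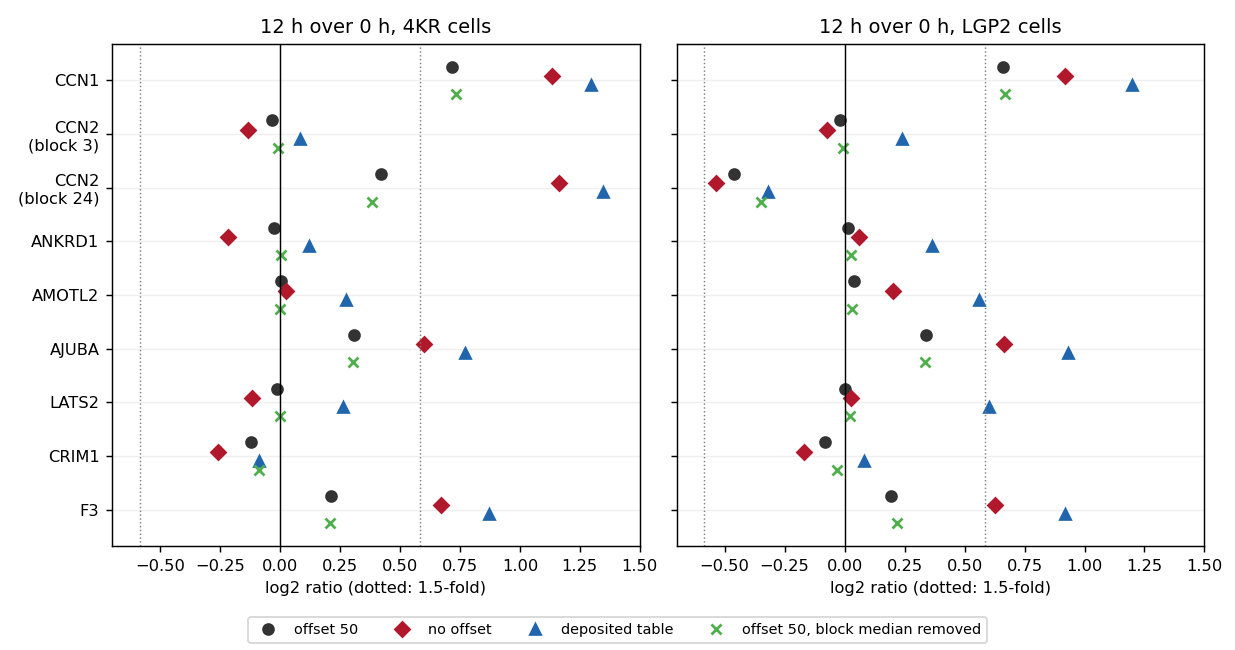
Log2 ratio of 12 h over 0 h in 4KR and in LGP2 cells for the 9 detected probes, from 1 array per group, in the same settings as the ratios of the lines. CCN1 lies right of 0 in both lines in every setting, and the block 24 probe of CCN2 lies right of 0 in 4KR and left of 0 in LGP2 cells.

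With the offset, none of the given probes for 17 Hippo kinases and regulators (18 to 20 by comparison) reached 1.5-fold in any of the 5 comparisons. Likewise none of 11 given probes for YAP, TAZ, the TEAD factors and the VGLL cofactors did. Over all probes the share past 1.5-fold in 1 direction was 0.0318% to 1.7%, so a count of 0 in lists of this size says little. With no offset, the probes of YAP1, LATS1 and MAP4K4 passed in at least 1 comparison. MAP4K4 was at -0.60 for 12 h over 0 h in LGP2 cells. Over all probes with no offset, 2.38% were at least 1.5-fold lower in 4KR cells at 0 h and 2.99% at 12 h. For 12 h over 0 h, 7.58% were as much higher in 4KR and 8.38% in LGP2 cells. Shares in the opposite directions and for the difference of the responses were not counted with no offset. YAP1 itself had an intensity of 4.4 in 4KR cells against 8.80 in LGP2 cells at 12 h, and of 7.90 against 3.61 at 0 h. It was lower in 4KR cells at 12 h and higher at 0 h, with log2 ratios of -0.16 and 0.18, or -0.95 and 1.0 with no offset, on a dim probe. With the offset, the kinase and regulator probes ran for 12 h over 0 h from -0.32 to 0.35 in 4KR cells. In LGP2 cells they ran from -0.37 to 0.33. The probes of YAP, TAZ and their partners ran from -0.20 to 0.20 in 4KR and from -0.13 to 0.16 in LGP2 cells. With no offset the dim YAP1 probe was at -1.07 in 4KR and 0.88 in LGP2 cells. Its difference of the responses was -1.95 with no offset and -0.35 with the offset.

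The probes of WWTR1, the gene of TAZ, had ratios of 4KR over LGP2 cells of 0.04 and -0.08 at 12 h and -0.02 and 0.07 at 0 h. The TEAD factors, which carry YAP and TAZ on DNA, were at -0.01 for TEAD1, 0.14 for TEAD2, -0.09 and -0.06 for the TEAD3 probes and 0.06 for TEAD4 at 12 h. At 0 h they were at -0.02, 0.06, -0.04, 0.04 and -0.10 in the same order.

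Among the kinases and their partners, STK4 was at -0.21 at 12 h and 0.02 at 0 h, and the STK3 probe in block 8 at 0.02 and 0.01. LATS1, which acts beside LATS2, was at -0.07 at 12 h and -0.22 at 0 h. SAV1, the scaffold of the kinase pair, was at -0.06 and -0.44. The LATS1 and SAV1 probes lie in block 24, and with the block median removed their values at 0 h were -0.05 and -0.27. With no offset LATS1 was at -1.01 at 0 h, and its 12 h over 0 h ratio was 1.44 in 4KR and 0.64 in LGP2 cells. The medians of block 24 with no offset were -0.46, 0.14 and -0.32 in the same order. With the offset, the LATS1 difference of the responses was 0.14, and -0.06 with the block median removed. MOB1A and MOB1B, the co-activators of the LATS kinases, were at -0.04 and 0.02 at 12 h and -0.01 and 0.02 at 0 h, and NF2, the upstream activator merlin, was at -0.05 and 0.09.

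Of the 13 given probes in a list of 13 further YAP target genes, those of RBMS3 and GADD45A passed 1.5-fold with the offset. RBMS3 was lower in 4KR cells at 0 h, as 0.391% of all probes were, and GADD45A was higher at 12 h, as 1.49% were in 4KR and 1.7% in LGP2 cells. With no offset NUAK2 also passed for 12 h over 0 h, where 7.58% of all probes were as high in 4KR and 8.38% in LGP2 cells. FOXF2 passed at -0.71 for 4KR over LGP2 cells at 0 h, where 2.38% of all probes were as low. Its probe lies in block 24, whose median with no offset was -0.46 there. FOXF2 was also at -0.70 for 12 h over 0 h in LGP2 cells, where the block median was -0.32. NT5E passed at -0.74 for 12 h over 0 h in 4KR cells. All 3 were named after their values were seen. The NT5E probe is dim, with an intensity of 1.4 at 12 h and 1.5 at 0 h in 4KR cells. Its ratio there was -0.04 with the offset and -0.10 in the deposited table. RBMS3, an RNA-binding protein gene, had an intensity of 5.70 in 4KR cells against 19.4 in LGP2 cells at 12 h, and of 5.30 against 21.4 at 0 h. Both 4KR arrays were dim and both LGP2 arrays brighter, with log2 ratios of -0.46 at 12 h and -0.60 at 0 h, or -1.73 and -1.97 with no offset. The other given probes of that list lay between -0.71 and 0.30 in these ratios with no offset, with the lowest value for FOXF2 in block 24 at 0 h.

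GADD45A, which is also a DNA damage and stress gene, was higher at 12 h, with log2 ratios of 1.16 in 4KR and 1.19 in LGP2 cells. Its intensity was 1033 in 4KR and 1117 in LGP2 cells at 12 h, against 475 and 457 at 0 h. NUAK2, an AMPK-related kinase, was at 0.35 and 0.38, and at 1.70 and 1.84 with no offset, and its intensity was 13.4 in 4KR and 14.4 in LGP2 cells at 12 h, against 3.40 and 3.01 at 0 h. The medians of the 13 given probes were -0.03 at 12 h and 0.01 at 0 h for 4KR over LGP2 cells, and -0.03 in 4KR and -0.02 in LGP2 cells for 12 h over 0 h.

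**Figure D5:**
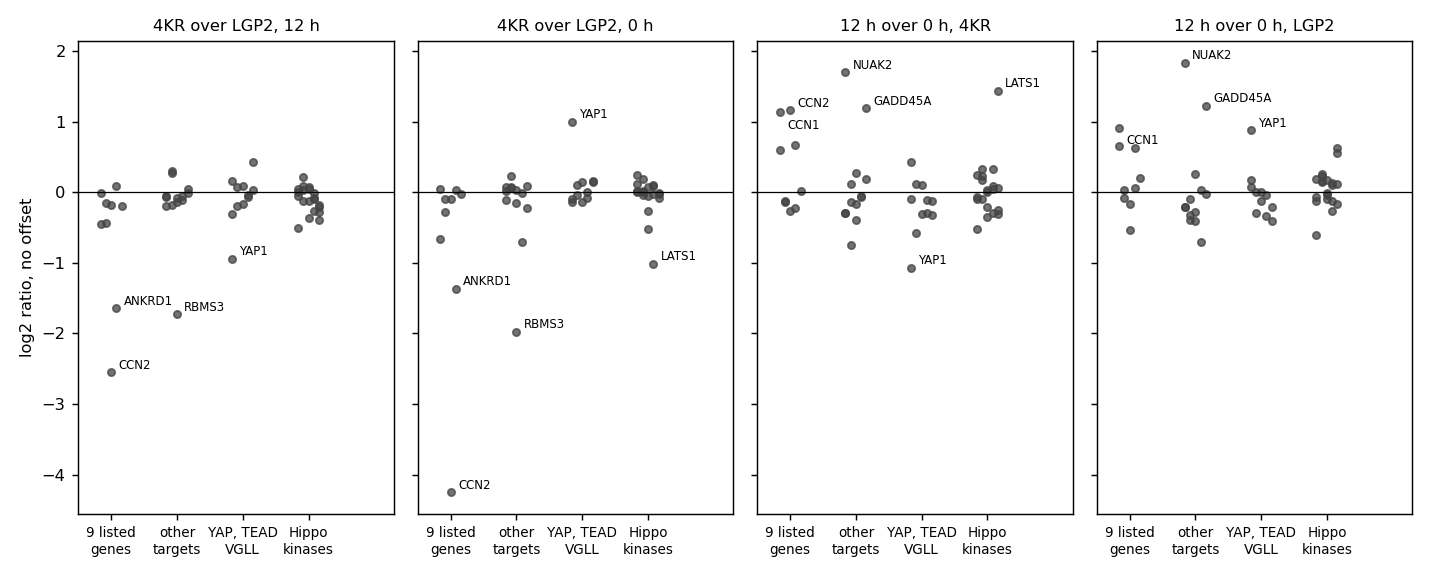
Log2 ratio with no offset of every given probe of the 9 YAP target genes, 13 other target genes, YAP, TAZ, TEAD and VGLL genes, and Hippo kinases and regulators, in 4 comparisons of single arrays. The block 24 probe of CCN2, ANKRD1 and RBMS3 lie below the other target probes for 4KR over LGP2 cells at both times, and NUAK2, GADD45A and CCN1 lie high for 12 h over 0 h in both lines.

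Within the CCN family, CCN3 and CCN5 had ratios of 4KR over LGP2 cells of 0.01 and 0.05 at 12 h and 0.08 and 0.07 at 0 h. CCN4 was not well above background on any array, and CCN6 was detected on 2 arrays, those at 12 h.

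Similarity of profile was measured over the 4 arrays as the root mean square difference of the log2 values, each centred on its own mean, among 17929 named probes. The 5 probes nearest to CCN1 were those of ARC, MASTL, SQSTM1, ZNF711 and THUMPD2, at 0.09 to 0.13, where the profile of CCN1 itself had a root mean square of 0.39. Of these 5 probes, ARC, ZNF711 and THUMPD2 lie in block 23, whose median ratio of 4KR over LGP2 cells was -0.06 at 0 h. For the block 24 probe of CCN2 they were SLC50A1, CNN3, SFXN4, KCTD12 and FUBP1, at 0.72 to 0.78 against 1.09 for CCN2 itself, and 4 of these 5 probes also lie in block 24, the shifted block. For the block 3 probe of CCN2 they were INSRR, FRMD6-AS1, LAPTM5, ZDHHC11B and PRDM7, all with nearly flat profiles like its own, whose root mean square was 0.02.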

How the data were processed

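Total RNA was amplified to amino allyl aRNA and coupled to Cy5, per the labels' protocols. The deposited scanner tables give, per the file headers, the median intensity of each of 27456 spots, not normalized. The deposited series table holds intensities that equal the spot minus about the mean of 384 blank spots, scaled to an array median of 25 (largest residual 0.0530). No source used here says how values were left out of it.

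From 24460 gene probes on 4 arrays, limma 3.58.1 (R 4.3.3) subtracted background by normexp against the mean blank spot (offset 50), arrays were quantile-normalized, and log2 ratios were taken between them. "No offset" is plain subtraction. A ratio needed detection on at least 1 of its arrays, or on all 4 for the difference of responses. The ratio code was tested on simulated data. By the platform annotation 21707 probes had 1 gene and 2753 had none. Of the named probes, 21675 matched RefSeq (GRCh38.p14).

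The genes, pathway lists and tests were chosen with earlier results of these data known. Named genes were all 9 targets, listed pathway genes past 1.5-fold, and YAP1, WWTR1, TEAD1 to TEAD4, LATS1, STK3, STK4, NF2, SAV1, MOB1A and MOB1B whatever their value. Figures used matplotlib 3.10.9. Nothing says that the arrays came from separate cultures.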

Additional observations from a re-analysis of the deposited data

Results flagged for a closer look

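The responses of the CCN2 probe in block 24 had opposite signs in the lines, at 0.42 in 4KR cells and -0.46 in LGP2 cells, a difference of 0.88 between single arrays. The difference was not tested, since each group had 1 array. The block 3 probe of the same gene gave a difference of -0.01.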

How the results depend on the processing

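Besides the settings of the report, 9 alternatives were run, 2 of them chosen after seeing the data (leaving out blocks 20, 21 and 24, and the correction by neighbouring spots). No probe past 1.5-fold with the offset of 50 changed sign under them. LATS2, past 1.5-fold for 12 h over 0 h in LGP2 cells only in the deposited table (0.60), was at -0.10 with arrays scaled to the same median. Counts of probes at least 1.5-fold lower in 4KR cells, 1 at each time, became 3 at 0 h and 2 at 12 h with no offset and in the deposited table, and 2 at 12 h with an offset of 16. They became 0 at both times without blocks 20, 21 and 24, since the CCN2 probe lies in block 24. The count higher at 12 h in 4KR cells, 1 as reported, was 2 with an offset of 16, 4 with no offset and in the deposited table, and 3 without normalization between arrays. In LGP2 cells it was 3 with no offset and 4 in the deposited table, against 1. For the response of 4KR minus that of LGP2 cells the count of 1 became 0 when the probes of a gene were averaged and 0 without the 3 blocks. For the counts, the other 75 values were within 1.5 times those reported. For single probes and their medians 195 values moved by less than the spread of the control copies and 115 by more. The ANKRD1 ratio at 12 h, for example, was -0.30 with the offset and -1.64 without it. No paired analysis was possible because the groups share fewer than 2 replicate numbers, and a fit of line plus time was not run. Signal near the blank spots limits LATS2, ANKRD1, AXL and 1 AJUBA probe.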
